A study of Mus musculus with 62 samples.

Results

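Bcl11a and the globin genes were examined in CUT&Tag libraries of mouse haematopoietic stem and progenitor cells (HSPCs) that had lost the H3.3 chaperone Daxx. CUT&Tag cuts and tags DNA wherever an antibody is bound in the nucleus, so that reads mark the places of a histone mark or a protein. The 8 genes, of 55450 in the annotation, were Bcl11a, the alpha-globin genes Hba-x, Hba-a1 and Hba-a2, and the beta-globin genes Hbb-y, Hbb-bh1, Hbb-bs and Hbb-bt. Every site that the comparisons of the study listed within 50 kb of a gene body was taken, in windows chosen by position and not by signal. Of 1743368 sites in 14 comparisons, 467 lay in these windows, with 224 at Bcl11a (chr11:24028056-24224123, mm10), 188 at the alpha-globin genes (chr11:32226400-32347298) and 55 at the beta-globin genes (chr7:103762524-103903216).

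Nuclei came from bone marrow of C57BL/6 mice, from which cells without lineage markers and with c-Kit were enriched on magnetic beads. The groups were WT (Daxx +/+ Cre +/-), Daxx-KO (Daxx F/F Cre +/-) and DKO (Daxx F/F with Pu.1 F/F, Cre +/-), where F is a floxed allele, and all groups, WT included, carried Cre and received the same injections. In the study's inducible model Cre is under the Mx1 promoter, which interferon switches on in many cell types after pI:pC and which is not restricted to HSPCs; the labels name the driver only as Cre and give no ages. H3.3, Pu.1, H3K27ac and H3K9me3 were compared between Daxx-KO and WT at 3 and 24 weeks post injection (w.p.i.), with 2 libraries per group, and H3K27me3 likewise at 24 w.p.i. At 8 w.p.i. H3K9me3 was compared in all 3 pairs of genotypes and H3K27me3 between DKO and each of the other groups, with 3 libraries per group.

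Globin chains assemble in pairs of alpha and beta type into haemoglobin, the oxygen carrier of red cells. In the mouse, Hba-x, Hbb-y and Hbb-bh1 are used by embryonic red cells, and Hba-a1, Hba-a2, Hbb-bs and Hbb-bt by adult ones. Enhancers within introns of the neighbouring gene Nprl3 act on the alpha genes, and a locus control region upstream of Hbb-y acts on the beta genes. Bcl11a is a zinc-finger repressor that silences embryonic globin genes in adult erythroid cells and is also needed for B cell development and stem cell function; an erythroid enhancer lies in its intron 2. H3K27ac marks active promoters and enhancers, H3K27me3 marks Polycomb-repressed chromatin, H3K9me3 marks heterochromatin, and Pu.1 is a myeloid and B lymphoid transcription factor.

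A site was called gained where the first group of a comparison had the higher mean normalized count (the reads of a site divided by a constant for its library) and lost where it had the lower. Only sites that passed the authors' window test are in the tables, so a site without a listing has no value here. Log2 ratios are of group means with 1 added, and values are given for replicate 1 first. With 2 libraries per group an exact two-sided permutation test cannot give a p below 0.333, and with 3 not below 0.1, so no p is given. Groups did not overlap at 417 of 427 member sites with 2 libraries per group (97.7%), against 98% of all listed sites, and at 36 of 40 (90.0%) with 3, against 81.2%. The 81.2% pools all 5 comparisons with 3 libraries per group, and those of H3K9me3 hold no member site. Separation is therefore a property of most listed sites.

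The sequences that carry the results are shown first. The 4 adult globin promoters (the 250 bases before the RefSeq start, mm10, strand of the gene) show how alike the gene copies are. Matches to 5 motifs on either strand are in capitals. The erythroid factor GATA1 and its relatives bind AGATAA. The motif of Pu.1 was GAGGAAGT. For Bcl11a itself the word TGACCA was searched. The motif of Klf1, an activator of adult beta-globin, was CCACACCC. NF-E2 and AP-1 both bind TGACTCA, so that this word does not tell them apart.
Hba-a1 (chr11:32283422-32283671, plus strand): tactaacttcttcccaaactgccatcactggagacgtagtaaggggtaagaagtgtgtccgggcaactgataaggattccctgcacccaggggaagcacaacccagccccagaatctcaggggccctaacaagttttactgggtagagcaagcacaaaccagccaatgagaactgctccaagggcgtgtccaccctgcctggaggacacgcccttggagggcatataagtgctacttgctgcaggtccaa
Hba-a2 (chr11:32296242-32296491, plus strand): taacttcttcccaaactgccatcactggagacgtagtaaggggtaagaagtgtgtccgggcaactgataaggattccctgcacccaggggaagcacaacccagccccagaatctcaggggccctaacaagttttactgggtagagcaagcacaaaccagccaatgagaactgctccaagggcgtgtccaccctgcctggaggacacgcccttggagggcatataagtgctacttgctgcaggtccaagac
Hbb-bs (chr7:103827929-103828178, minus strand): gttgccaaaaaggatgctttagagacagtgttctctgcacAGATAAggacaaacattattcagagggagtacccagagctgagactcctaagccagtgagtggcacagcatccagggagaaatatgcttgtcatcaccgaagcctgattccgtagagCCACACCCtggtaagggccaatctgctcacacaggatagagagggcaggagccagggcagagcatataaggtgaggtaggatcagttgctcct
Hbb-bt (chr7:103813924-103814173, minus strand): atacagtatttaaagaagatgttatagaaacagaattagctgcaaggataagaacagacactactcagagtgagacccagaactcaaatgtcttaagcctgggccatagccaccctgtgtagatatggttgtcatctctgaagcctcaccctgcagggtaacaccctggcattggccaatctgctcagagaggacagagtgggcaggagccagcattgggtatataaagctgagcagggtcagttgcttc
The Hba-a1 and Hba-a2 promoters were identical over the 247 bases that align, and their gene bodies were identical at 793 of 794 aligned bases. Hbb-bs and Hbb-bt were 73.3% identical in the promoter and 95.8% in the gene body, with a longest identical run of 906 bases. Reads from these pairs cannot be assigned to 1 copy with certainty, and values at Hba-a1 and Hba-a2, or in the bodies of Hbb-bs and Hbb-bt, may be shared between copies. The Hbb-bs promoter held an AGATAA and a CCACACCC, which occurred in 9.99% and 3.2% of 32851 RefSeq promoters. None of the 5 words, matched exactly, was found in the 250 bases of Hba-a1, Hba-a2 or Hbb-bt. Variant forms of the motifs were not searched, so a missing match is not a missing binding site.

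The distal sequences below are 300-base windows (mm10, plus strand) inside 6 sites at which H3K27ac was lost at both 3 and 24 w.p.i., with the same motifs in capitals. Each window was placed where the shared interval held most matches. The sites shown come from 19 overlapping pairs lost at both times. Some of the others, such as the one 0.8 kb from the Bcl11a start, held no match.
Nprl3 intron, 30.8 kb upstream of Hba-x (chr11:32245255-32245554): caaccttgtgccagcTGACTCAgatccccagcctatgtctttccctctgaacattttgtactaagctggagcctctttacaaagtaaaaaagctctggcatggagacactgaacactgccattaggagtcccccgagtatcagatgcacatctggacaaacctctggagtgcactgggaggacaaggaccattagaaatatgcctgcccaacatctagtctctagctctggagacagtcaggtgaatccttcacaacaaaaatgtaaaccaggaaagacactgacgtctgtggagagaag
Nprl3 intron, 25.3 kb upstream of Hba-x (chr11:32250906-32251205): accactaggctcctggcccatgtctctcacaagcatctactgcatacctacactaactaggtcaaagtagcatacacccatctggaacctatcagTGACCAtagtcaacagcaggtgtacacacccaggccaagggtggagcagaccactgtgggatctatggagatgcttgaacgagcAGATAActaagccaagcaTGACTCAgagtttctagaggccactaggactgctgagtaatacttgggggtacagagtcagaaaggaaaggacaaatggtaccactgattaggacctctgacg
6.1 kb upstream of Hbb-y (chr7:103859109-103859408): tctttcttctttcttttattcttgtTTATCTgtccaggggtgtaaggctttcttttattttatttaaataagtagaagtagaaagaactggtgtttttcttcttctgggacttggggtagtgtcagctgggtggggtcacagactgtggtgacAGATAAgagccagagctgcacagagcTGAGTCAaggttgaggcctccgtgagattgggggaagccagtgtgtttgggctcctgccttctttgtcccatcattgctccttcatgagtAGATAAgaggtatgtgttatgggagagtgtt
12.7 kb upstream of Hbb-y (chr7:103865844-103866143): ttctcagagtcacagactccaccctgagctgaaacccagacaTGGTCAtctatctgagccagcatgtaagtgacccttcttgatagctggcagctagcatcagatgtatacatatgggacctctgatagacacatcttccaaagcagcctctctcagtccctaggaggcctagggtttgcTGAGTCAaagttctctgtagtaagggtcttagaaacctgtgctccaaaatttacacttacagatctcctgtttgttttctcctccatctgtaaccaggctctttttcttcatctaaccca
Bcl11a intron 2, 70.7 kb downstream of the start (chr11:24148689-24148988): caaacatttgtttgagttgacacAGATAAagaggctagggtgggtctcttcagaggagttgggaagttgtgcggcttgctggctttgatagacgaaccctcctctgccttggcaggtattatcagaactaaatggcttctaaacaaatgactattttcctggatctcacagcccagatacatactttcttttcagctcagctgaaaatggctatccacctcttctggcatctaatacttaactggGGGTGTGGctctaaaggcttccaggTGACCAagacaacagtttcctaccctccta
107.4 kb downstream of the Bcl11a start (chr11:24184810-24185109): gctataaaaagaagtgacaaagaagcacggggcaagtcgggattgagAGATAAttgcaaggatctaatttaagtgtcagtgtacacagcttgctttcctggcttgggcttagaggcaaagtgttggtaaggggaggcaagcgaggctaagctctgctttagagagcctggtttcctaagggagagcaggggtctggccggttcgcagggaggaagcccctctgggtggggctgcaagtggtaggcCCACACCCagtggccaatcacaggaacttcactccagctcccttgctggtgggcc
Over fixed windows, the central 300 bases, TGACTCA was found in 8 of 34 H3K27ac sites lost at the globin loci at 24 w.p.i. (23.5%), in 0 of 40 lost at Bcl11a and in 5.62% of all 193657 listed sites. AGATAA was found in 17.6% and 12.5% of these sites and in 13.1% of all, and TGACCA in 17.6%, 22.5% and 16.3%. These are descriptions of letters; a match was not tested for binding.

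H3K27ac was lower in Daxx-KO at most of the listed sites of the 3 loci. At 3 w.p.i. 19 of 52 sites were gained and 33 lost, and at 24 w.p.i. 20 of 94 were gained and 74 lost. Across all listed sites 41.5% were gained at 3 w.p.i. and 42.5% at 24 w.p.i. At the globin genes 11 of 29 sites were gained at 3 w.p.i. (37.9%, Wilson 95% interval 22.7 to 56), close to the background, and 9 of 43 at 24 w.p.i. (20.9%, 11.4 to 35.2). At Bcl11a the shares were 34.8% (18.8 to 55.1) and 21.6% (12.5 to 34.6). Intervals cover counting error only, since neighbouring sites share their libraries.

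The 3 loci differed in how many H3K27ac sites were listed. At 3 w.p.i. there were 11.7 sites per 100 kb at Bcl11a, 13.2 at alpha-globin and 9.2 at beta-globin, against a median of 6.3 around 20807 protein-coding genes. At 24 w.p.i. there were 26, 24.8 and 9.2, against 14.7. Of the 52 sites at 3 w.p.i., 28 (53.8%) overlapped 29 of the 94 sites (30.9%) at 24 w.p.i. In the 32 overlapping pairs, 19 were lost at both times, 2 gained at both and 11 opposite. The share in 1 direction was 65.6%, against 59.8% of 42522 overlapping H3K27ac pairs genome-wide.

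**Figure D1:**
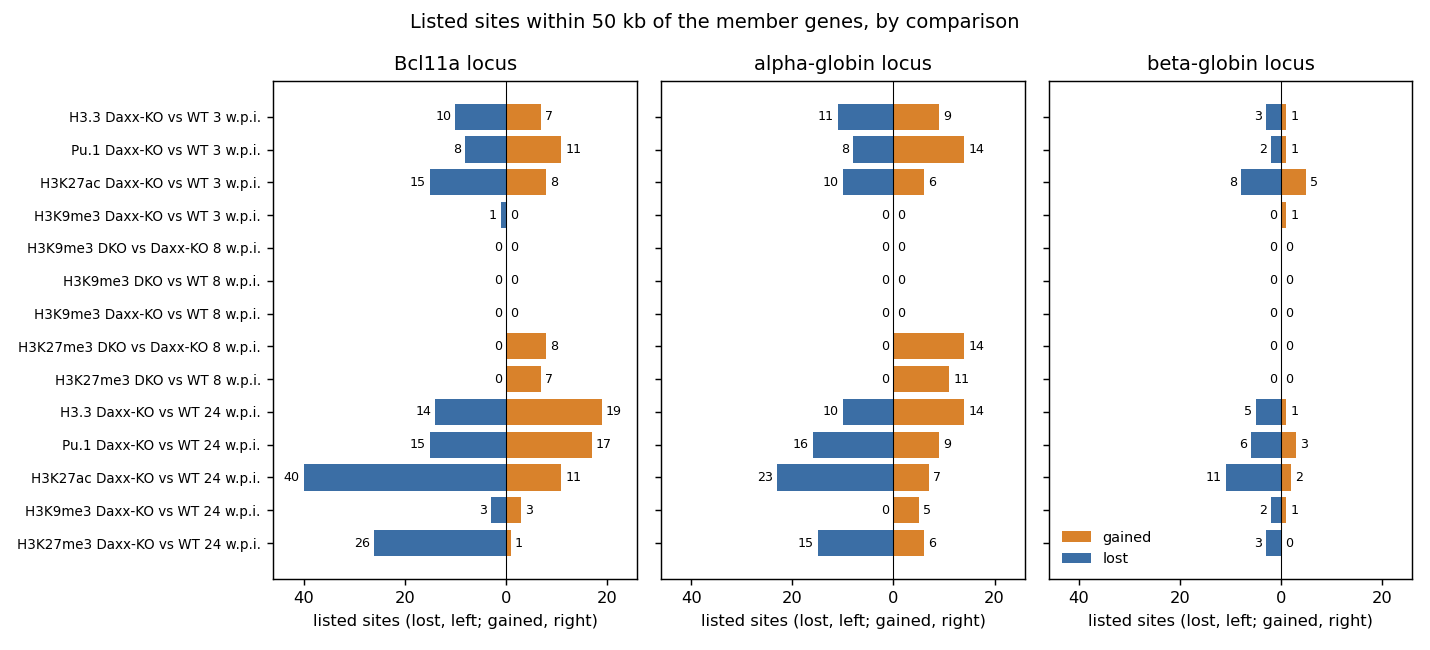
Bars give the number of listed sites in each comparison (rows) at the Bcl11a, alpha-globin and beta-globin loci, with lost sites to the left of 0 and gained sites to the right. H3K27ac and H3K27me3 at 24 w.p.i. lie mostly to the left, with 40 and 26 lost sites at Bcl11a, and H3K27me3 at 8 w.p.i. wholly to the right.

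The stretch upstream of Hbb-y, where the locus control region lies, had lost H3K27ac sites at both times. Within 20 kb all 4 sites at 3 w.p.i. were lost, with log2 ratios from -2.46 to -1.51, and all 6 at 24 w.p.i., from -3.97 to -1.98. Among all listed H3K27ac sites 41.5% and 42.5% were gained at these times. The site 6.3 kb upstream of the embryonic gene Hbb-y (chr7:103859001-103860000) had normalized counts of 40.7 and 46.7 for Daxx-KO against 163 and 89.4 for WT at 3 w.p.i. (log2 ratio -1.51). At 24 w.p.i. the overlapping site 6.1 kb upstream had 16.5 and 2.93 against 136 and 198 (-3.97). Both Daxx-KO libraries were below both WT libraries at each time. The strongest H3K27ac signal of the stretch was 7.9 kb upstream at 24 w.p.i., with 134 and 87.8 for Daxx-KO against 486 and 536 for WT (-2.19).

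Farther upstream the same order held, with a wider spread. At 13 kb the 3 w.p.i. libraries gave 13.6 and 22.9 for Daxx-KO against 109 and 38.6 for WT (-1.95), and at 12.7 kb those of 24 w.p.i. gave 11.99 and 20.5 against 67.02 and 191 (-2.92). At 17.8 kb and 3 w.p.i. the counts were 15.5 and 48.4 against 209.5 and 72.8 (-2.11). At 17.3 kb and 24 w.p.i. they were 8.24 and 70.3 against 206 and 155 (-2.17). The WT libraries differed from each other by more than the Daxx-KO libraries in count at 3 of these 4 sites. The listed H3.3 sites of this stretch, 2 at 3 w.p.i. and 1 at 24 w.p.i., were lost. Among all listed H3.3 sites 59.4% and 52.6% were gained at these times, and so few sites show no trend. The H3.3 site 13.9 kb upstream had 14.2 and 11.05 for Daxx-KO against 78.5 and 120.5 for WT at 3 w.p.i. (-2.88), and the one 7.3 kb upstream was at 0 in both Daxx-KO libraries and at 44.3 and 99.6 in WT at 24 w.p.i. One H3K9me3 site, 14.3 kb upstream, was also lower at 24 w.p.i., with 0 and 9.38 against 46.6 and 30.9 (-2.81).

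**Figure D2:**
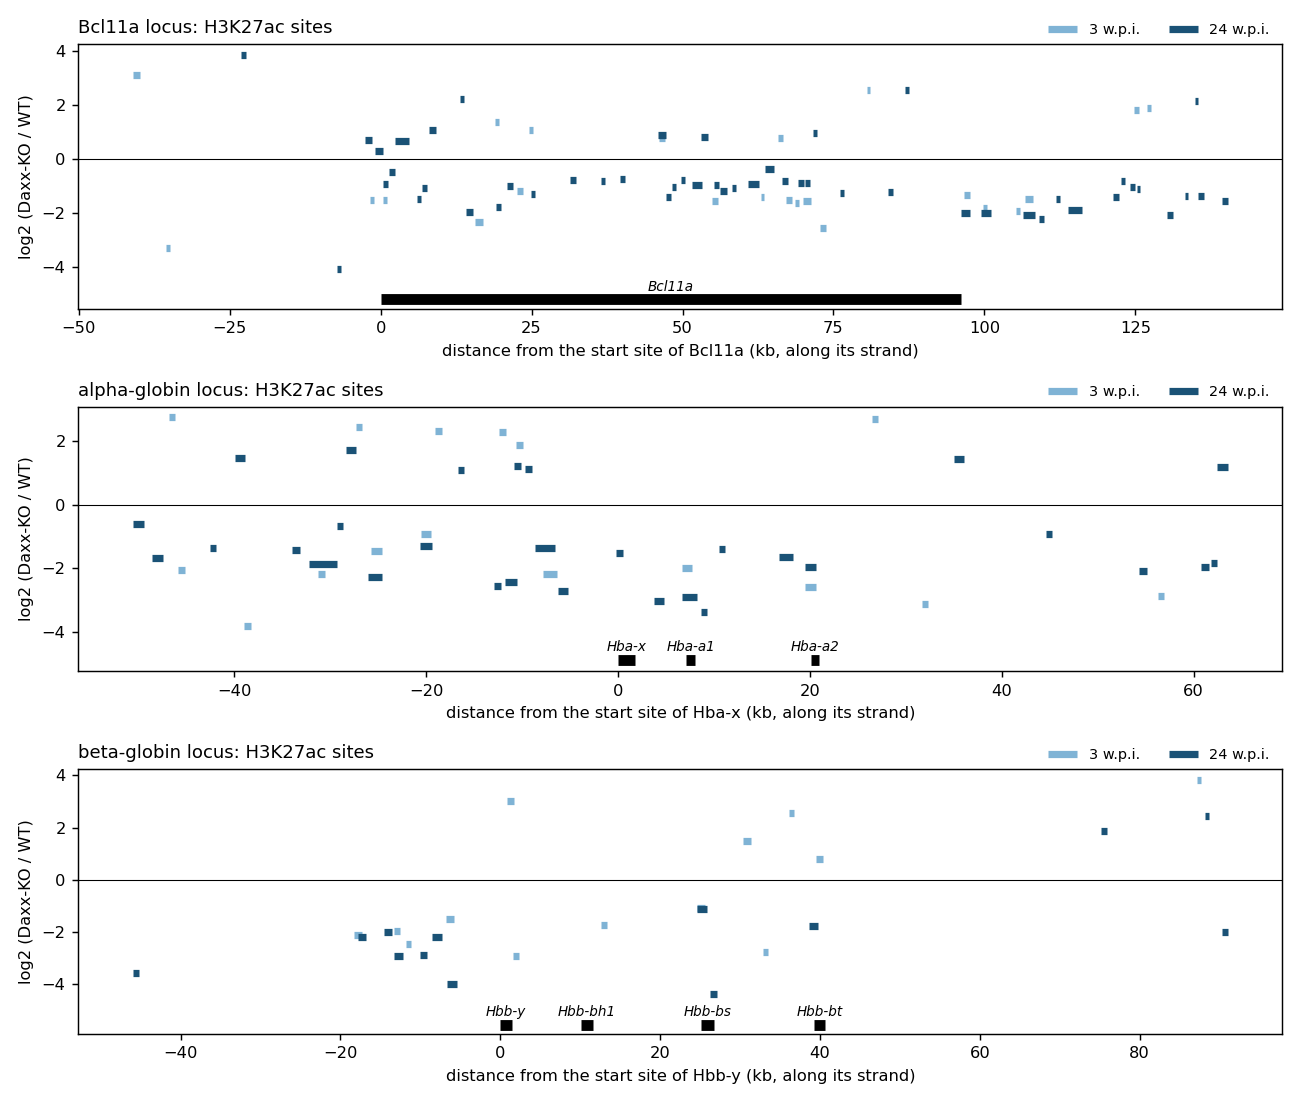
Each dash is an H3K27ac site, drawn at its distance from the start site of Bcl11a, Hba-x or Hbb-y (kb, along the gene's strand) and at its log2 ratio of Daxx-KO over WT, with 3 w.p.i. pale and 24 w.p.i. dark; black bars are gene bodies. Upstream of Hbb-y all 4 sites at 3 w.p.i. and all 6 at 24 w.p.i. within 20 kb lie below 0, as do the 7 sites at 24 w.p.i. from Hba-x to Hba-a2.

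The adult beta genes themselves differed in direction. At the Hbb-bs start (chr7:103826534-103828096, minus strand) H3K27ac was 53.3 and 48.4 for Daxx-KO against 142 and 73.9 for WT at 3 w.p.i. (-1.07) and 103 and 136 against 239 and 278 at 24 w.p.i. (-1.11). In Hbb-bt (chr7:103812524-103813996, minus strand) it was higher at 3 w.p.i., 165 and 157 against 98.9 and 84.95 (0.80), at a site in the gene body. A site over the Hbb-bt start, which overlaps the first, was lower at 24 w.p.i., with 135 and 45.4 against 283 and 328 (-1.75). Pu.1 was gained over both genes at 24 w.p.i. Counts were 42.3 and 133 against 8.64 and 27.4 in Hbb-bt (2.22) and 58.6 and 91.9 against 5.76 and 15.8 in Hbb-bs (2.70). No H3.3, H3K9me3 or H3K27me3 site was listed within 1 kb of a beta-globin start.

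The embryonic genes Hbb-y and Hbb-bh1 (chr7:103851749-103853216 and chr7:103841637-103843164, minus strand) had few sites of their own. Over the end of Hbb-y, H3K27ac at 3 w.p.i. was 5.81 and 25.5 for Daxx-KO against 2.15 and 0 for WT (3.00), while a neighbouring site 2 kb from its start had 0 and 1.7 against 19.3 and 6.62 (-2.92). These counts are low, and the 2 sites overlap in part with opposite signs. At Hbb-bh1 the nearest Pu.1 site, 7.2 kb downstream, was lost at 3 w.p.i., with 22.05 and 9.73 against 76.3 and 83.1 (-2.26). An H3.3 site at the same place was lost at 24 w.p.i., with 0 and 2.26 against 62.7 and 72.4 (-5.01). No site within 1 kb of the Hbb-bh1 start was listed in any of the 14 comparisons.

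A place 6.1 kb downstream of Hbb-bs (chr7:103821551-103822350) held sites of 5 comparisons. Pu.1 was gained there at 3 w.p.i., 55.1 and 69.7 against 29.8 and 38.4 (0.86), and lost at 24 w.p.i., 21.8 and 16.7 against 76.3 and 47.4 (-1.63). H3.3 at 3 w.p.i. was 30.01 and 32.4 against 11.2 and 5.24 (1.8). H3K27ac at 3 w.p.i. was 22.3 and 27.2 against 6.45 and 9.93 (1.49), and H3K9me3 at 24 w.p.i. 22.3 and 38.6 against 3.11 and 8.43 (2.22). Of the 5 marks and times, 4 were higher in Daxx-KO. Among all listed sites of these comparisons, 56% (Pu.1), 59.4% (H3.3) and 41.5% (H3K27ac) were gained at 3 w.p.i. At 24 w.p.i. the shares were 48.2% (Pu.1) and 48.1% (H3K9me3). The place was named because several comparisons listed a site there, so the count of 4 shows no trend. Farther on, 6 kb downstream of Hbb-bt, Pu.1 was at 0 in both Daxx-KO libraries and at 132 and 92.6 in WT at 24 w.p.i.

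The alpha-globin genes showed the same order for H3K27ac at their enhancers. In an Nprl3 intron 30.8 kb upstream of Hba-x (chr11:32244151-32247100), H3K27ac at 24 w.p.i. was 124 and 157 for Daxx-KO against 539.5 and 494 for WT (-1.87). The overlapping site at 3 w.p.i. had 20.4 and 11.04 against 72 and 77.2 (-2.18). Nprl3 is a subunit of the GATOR1 complex, which restrains mTORC1, and its introns hold these enhancers in mammals. At 25.2 kb upstream the counts were 30.04 and 28.03 against 77.4 and 83.8 at 3 w.p.i. (-1.44), and the overlapping site at 24 w.p.i. had 29.2 and 74.6 against 279 and 230.2 (-2.27). At 20 kb they were 31.01 and 21.2 against 55.9 and 45.2 (-0.93) and 67.4 and 99.5 against 247 and 163 (-1.29). Daxx-KO and WT libraries did not overlap at any of these 3 places at either time, as at 98% of all listed sites with 2 libraries per group.

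Closer to Hba-x the sites were mixed in direction. At 7.1 kb upstream of Hba-x H3K27ac was 17.4 and 8.5 against 85.97 and 37.5 at 3 w.p.i. (-2.17), and the overlapping site at 7.6 kb had 74.9 and 142 against 285 and 271 at 24 w.p.i. (-1.35). A site 11.2 kb upstream was lost at 24 w.p.i., with 22.5 and 48.3 against 194 and 199 (-2.44), where 2 overlapping sites had been gained at 3 w.p.i. Close to the Nprl3 start, 9.3 kb upstream of Hba-x, H3K27ac was gained at 24 w.p.i., with 119 and 74.6 against 35.8 and 52.2 (1.12). Over the whole Nprl3 gene body 5 H3K27ac sites were gained and 5 lost at 3 w.p.i., and 5 and 10 at 24 w.p.i. Of all listed H3K27ac sites 41.5% and 42.5% were gained at these times.

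The adult alpha genes lost H3K27ac at their starts at both times. At Hba-a1 (chr11:32283511-32284465) counts were 6.78 and 3.4 for Daxx-KO against 23.6 and 23.2 for WT at 3 w.p.i. (-2.00). At 24 w.p.i. they were 14.99 and 23.4 against 149.7 and 152 (-2.91). At Hba-a2 (chr11:32296489-32297298) they were 12.6 and 0 against 40.8 and 44.1 (-2.57) and 25.5 and 40.98 against 134 and 131 (-1.96). The WT libraries lay close to each other at both genes, and all Daxx-KO values lay below them. The embryonic gene Hba-x (chr11:32276400-32278116) had a lost H3K27ac site at its start at 24 w.p.i. only, with 17.98 and 14.6 against 55.8 and 41.1 (-1.52). From Hba-x to Hba-a2 all 7 sites at 24 w.p.i. were lost, with log2 ratios from -3.38 to -1.38, while 42.5% of all listed H3K27ac sites were gained.

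**Figure D3:**
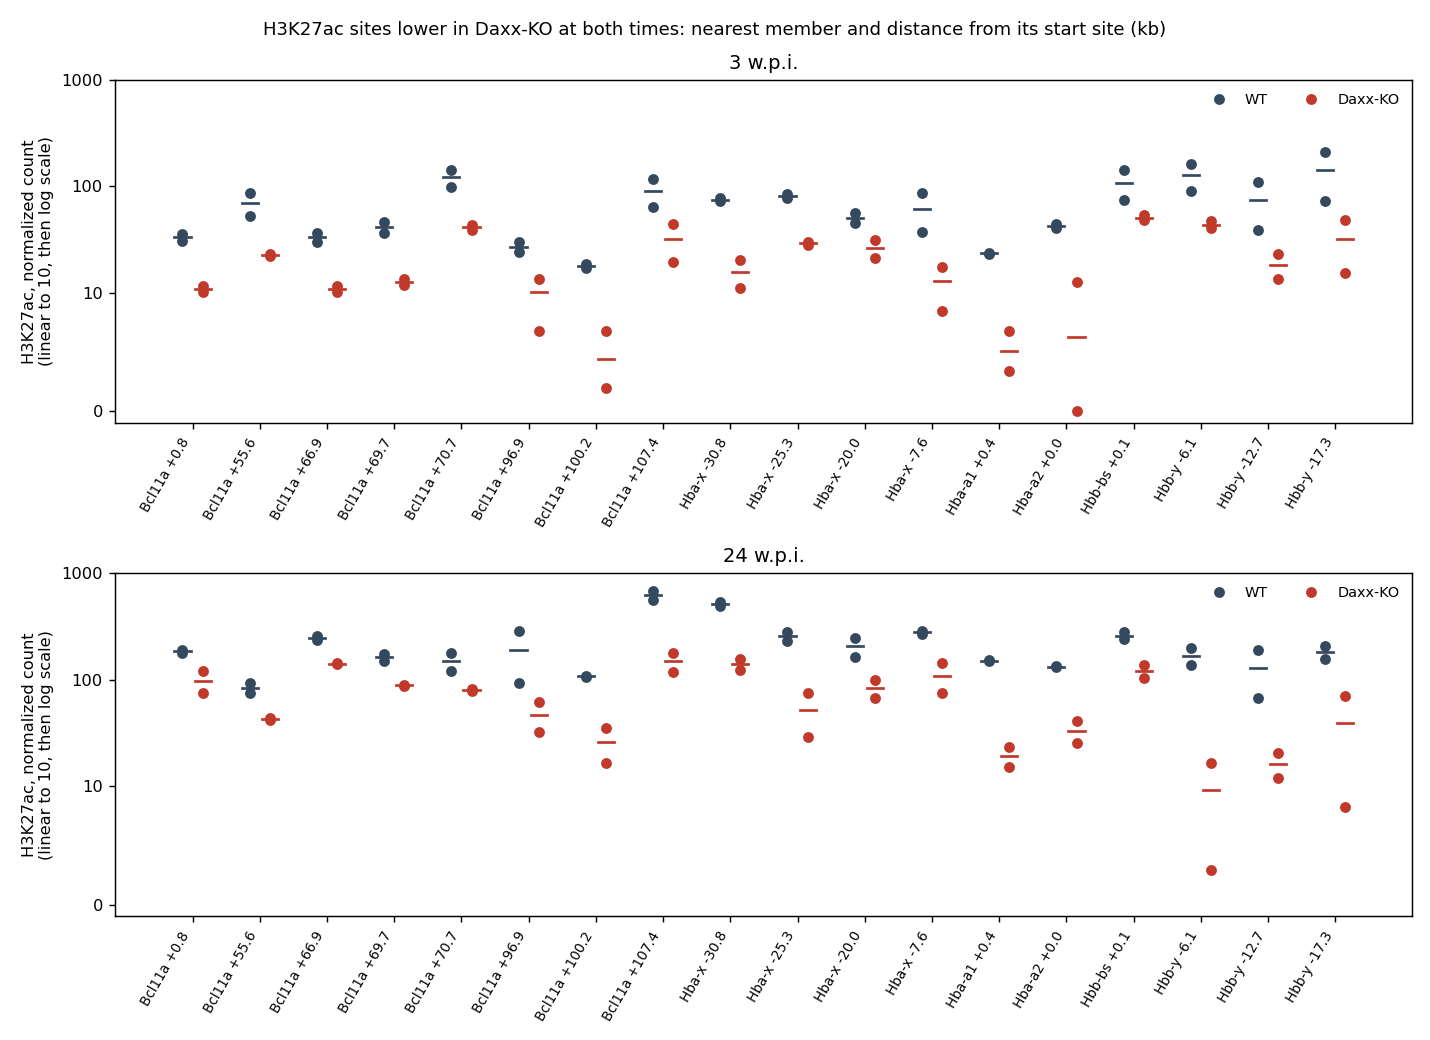
Points are normalized H3K27ac counts of single libraries (linear to 10, then log scale) at the sites lost at both 3 w.p.i. (top) and 24 w.p.i. (bottom), labelled by the nearest gene and the distance from its start in kb; horizontal lines are group means of 2 libraries. At Hba-a1 the 24 w.p.i. values were 14.99 and 23.4 for Daxx-KO against 149.7 and 152 for WT.

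H3.3 and Pu.1 were higher in Daxx-KO at most listed sites over the alpha genes at 3 w.p.i. H3.3 at Hba-a1 was 68.7 and 70.7 for Daxx-KO against 4.21 and 34.05 for WT (1.81), and at Hba-a2 36.3 and 39.8 against 0 and 26.2 (1.47). From Hba-x to Hba-a2 all 4 H3.3 sites were gained at 3 w.p.i., and of 5 Pu.1 sites 4 were gained and 1 lost (-1.18). Of all listed sites 59.4% (H3.3) and 56% (Pu.1) were gained at this time. Pu.1 over Hba-a1 was 116 and 112 against 10.4 and 31.96 (2.37), the largest Pu.1 difference within 1 kb of a globin start at this time. At the Hba-x start Pu.1 was 58.3 and 103 against 37.1 and 44.8 (0.96). The second of the 2 WT libraries for H3.3 at 3 w.p.i. had 3.06 reads per window on average and the first 22.88, so its normalized counts rest on few reads. The same holds for Pu.1, where the second WT library had 2.75 and the first 33.78.

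At 24 w.p.i. no H3.3 or Pu.1 site lay over Hba-a1 or Hba-a2. The nearest Pu.1 site, 1.4 kb upstream of Hba-a2, was at 0 in both Daxx-KO libraries and at 66.2 and 35.8 in WT. H3.3 was gained 2.4 kb upstream of Hba-a1, with 76.2 and 29.4 against 11.99 and 0 (2.94), and lost 5.7 kb downstream of its start, with 22.1 and 4.53 against 188 and 147 (-3.56). The theta-globin gene Hbq1b, between Hba-a1 and Hba-a2, held sites of 7 comparisons (chr11:32286901-32287850). All were gained except H3K27ac at 24 w.p.i. (30.7 and 23.4 against 91.6 and 52.2, -1.38). Pu.1 there was 151 and 57.5 against 1.44 and 23.2 at 24 w.p.i. (2.99), and H3K9me3 49.7 and 85.5 against 0 and 24.4 (2.38). In these 7 comparisons the share of all listed sites that were gained ran from 42.5% to 65.3%. Both H3K27me3 comparisons of DKO are among them and use the same DKO libraries, so their gains are not separate.

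Over whole windows, H3.3 and Pu.1 had no common direction at these loci. At 3 w.p.i. H3.3 had 10 gained and 14 lost sites at the globin genes (41.7% gained, 24.5 to 61.2) and 7 and 10 at Bcl11a, where 59.4% of all listed H3.3 sites were gained. Pu.1 had 15 and 10 (60%, 40.7 to 76.6) and 11 and 8, with 56% gained overall. At 24 w.p.i. H3.3 had 15 and 15 and, at Bcl11a, 19 and 14, with 52.6% overall. Pu.1 at 24 w.p.i. had 12 and 22 (35.3%, 21.5 to 52.1) and 17 and 15, with 48.2% overall. Each of these shares has a Wilson interval that includes its background. Few sites recurred, with 6 overlapping H3.3 pairs and 13 Pu.1 pairs between the times, of which 33.3% and 53.8% had the same direction, against 51.2% of 46327 and 48.1% of 56097 genome-wide.

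Bcl11a (chr11:24078056-24174123, plus strand) had 11 gained and 40 lost H3K27ac sites at 24 w.p.i., with gains at its start, in its introns and beyond them. Over the start, counts were 753 and 726 for Daxx-KO against 601 and 593 for WT (0.31). The highest H3K27ac signal of all 3 loci lay 3.5 kb downstream, with 1628 and 1227 against 798 and 995 (0.67). Both differences are small beside those at the globin genes. Just inside intron 1, 0.8 kb from the start, H3K27ac was lower at both times, 11.6 and 10.2 against 35.5 and 30.9 at 3 w.p.i. (-1.52) and 74.9 and 120.0 against 189 and 179 at 24 w.p.i. (-0.91).

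In intron 2 (chr11:24085651-24158252), which holds the erythroid enhancer, 4 H3K27ac sites were gained and 8 lost at 3 w.p.i., and 5 were gained and 21 lost at 24 w.p.i. At 55.3 kb from the start the 3 w.p.i. counts were 23.3 and 22.1 against 85.97 and 52.96 (-1.57), and the overlapping site at 24 w.p.i. had 41.96 and 43.9 against 92.7 and 75.2 (-0.95). At 70.6 kb they were 38.8 and 43.3 against 143 and 99.3 (-1.54) and, at 70.7 kb, 77.9 and 81.97 against 122 and 176 (-0.89). One place, 46.6 kb from the start, was higher at both times, with 111 and 97.7 against 55.9 and 66.2 (0.77) and 260.0 and 219.6 against 169 and 87.02 (0.90). Of all listed H3K27ac sites 41.5% and 42.5% were gained, so that the 4 of 12 in intron 2 at 3 w.p.i. lie near the background.

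H3K27ac was also lower at most listed sites downstream of Bcl11a. In the 50 kb past the gene 14 of 15 sites at 24 w.p.i. were lost, and 4 of 6 at 3 w.p.i. Of all listed H3K27ac sites 42.5% were gained at 24 w.p.i. and 41.5% at 3 w.p.i., so that the 4 of 6 lie near the background. The strongest site past the gene was 107.4 kb from the start (chr11:24184401-24186450), where Daxx-KO had 178 and 119 and WT 559 and 682 at 24 w.p.i. (-2.06). At 3 w.p.i. the counts were 44.6 and 19.5 against 64.5 and 117 (-1.47). H3K27me3 at the same place was lower too at 24 w.p.i., 25.5 and 16.6 against 146 and 94.2 (-2.46). Pu.1 differed within it, lower at 106.5 kb (8.18 and 12.5 against 46.1 and 50.5, -2.12) and higher at 108.2 kb (181 and 43.9 against 17.3 and 27.4, 2.28).

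In the Bcl11a gene body 9 of 11 Pu.1 sites were gained at 3 w.p.i., against 56% of all listed Pu.1 sites, while the share over the whole Bcl11a window lay at the background. Just inside intron 1 it was 49.6 and 34.05 against 11.5 and 0 (2.67), at the place where H3K27ac was lower. In intron 2, 50.1 kb from the start, it was 192 and 117 against 75.7 and 86.3 (0.92), and at 24 w.p.i. 51.5 kb from the start 165 and 83.6 against 59.01 and 32.6 (1.42). At 24 w.p.i. 8 of 12 Pu.1 sites in the gene body were gained, against 48.2% of all. H3.3 just upstream of the Bcl11a start was 137 and 102 against 45.6 and 39.3 at 3 w.p.i. (1.48). In intron 2 at 70.2 kb H3.3 was lower at 3 w.p.i. (26.8 and 23.6 against 43.5 and 94.3, -1.41) and higher at 24 w.p.i. (119 and 144 against 28.6 and 4.7, 2.91).

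H3K27me3 was lower at Bcl11a in Daxx-KO at 24 w.p.i. throughout the window. Of 27 listed sites 26 were lost and 1 gained (3.7% gained, 0.657 to 18.3), while 41.2% of all listed H3K27me3 sites were gained. Lost were 8 of 9 sites upstream, 10 of 10 in the gene body and 9 of 9 downstream, where the site that spans the start is counted on both sides of it. At the start the values were 177 and 155 for Daxx-KO against 232 and 264 for WT (-0.58), and 3.7 kb from it 110.1 and 99.4 against 232 and 283 (-1.29). In intron 2 at 50.2 kb they were 10.4 and 17.5 against 80.3 and 52.8 (-2.18), from a low level. The downstream sites had log2 ratios from -3.37 to -1.63. The gained site, 29 kb upstream over the noncoding gene A830031A19Rik, had 116 and 110.4 against 24.3 and 101 (0.84), with 1 WT library close to the Daxx-KO values.

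At the globin genes H3K27me3 at 24 w.p.i. had 6 gained and 18 lost sites (25%, 12 to 44.9), an interval that includes the 41.2% of all listed sites. At Hba-a1 the start had 127 and 129 for Daxx-KO against 198 and 194 for WT (-0.61), and the 4 sites from Hba-x to Hba-a2 were all lost. So H3K27me3 and H3K27ac were both lower over Hba-a1 in Daxx-KO at this time. The H3K27me3 difference was small. Rescaling by mean reads per window shifted the median log2 ratio of all listed H3K27me3 sites by 0.33 at this time. The gained sites included Hbq1a, the second theta-globin gene (225 and 283 against 148 and 154, 0.74), and the neighbouring gene Sh3pxd2b, a scaffold protein of podosomes, with 2301 and 2074 against 1284 and 1681 (0.56), the highest H3K27me3 counts of the 3 loci. At beta-globin the 3 sites were lost, and none was within 20 kb of Hbb-bt, Hbb-bs, Hbb-bh1 or Hbb-y.

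In DKO cells, which lack Pu.1 as well as Daxx, every H3K27me3 site of the 3 loci at 8 w.p.i. was gained. Against Daxx-KO there were 8 at Bcl11a and 14 at alpha-globin, and against WT 7 and 11, with none at beta-globin. Of all listed sites 65.3% and 56.1% were gained in these comparisons. For the 14 and 11 globin sites the Wilson intervals run from 78.5% and 74.1% up to 100%. Both comparisons use the same 3 DKO libraries and were normalized separately, so they are not independent and their counts differ for the same library. Alpha-globin had 11.6 and 9.1 listed sites per 100 kb, against a median of 1.9 around protein-coding genes in each.

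At Bcl11a all of these sites lay upstream of the start, over or next to A830031A19Rik. The broadest (chr11:24070951-24075300), centred 4.9 kb upstream, had 234, 346 and 426 in the DKO and 73.5, 83.3 and 70.4 in the WT libraries (2.13). Against Daxx-KO the site 3.8 kb upstream had 96.7, 242 and 217 in DKO and 70.8, 56.5 and 68.4 in Daxx-KO (1.49). The 3 DKO libraries were above all 3 libraries of the other group at both sites. No site in the Bcl11a gene body was listed at 8 w.p.i.

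At the alpha genes the DKO sites reached the promoters. Against Daxx-KO, H3K27me3 over Hba-x was 81.6, 69.4 and 68.2 in DKO and 26.4, 63.04 and 24.4 in Daxx-KO (0.93), with 1 Daxx-KO library close to the DKO values. Upstream of Hba-a1, at 1.7 kb, it was 46.5, 59.3 and 58.3 against 9.88, 17.4 and 13.2 (1.94). At the end of Hba-a2 it was 62.8, 42.2 and 60.8 against 17.3, 28.3 and 27.6 (1.15), and 5.8 kb from its start 162, 98.5 and 84.4 against 36.2, 60.9 and 50.01 (1.21). Against WT, in tables normalized apart from those against Daxx-KO, the counts were 39.6, 38.4 and 56.7 in DKO and 13.1, 4.53 and 17.9 in WT 4.9 kb upstream of Hba-x (1.84). Close to Hba-a1, at 1.1 kb upstream, they were 6.79, 10.5 and 15.2 against 1.75, 0 and 2.24 (2.35). The groups did not overlap at 15 of the 18 sites against WT and 21 of the 22 against Daxx-KO. The same held for 81.2% of all listed sites in the comparisons with 3 libraries per group, those of H3K9me3 included.

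**Figure D4:**
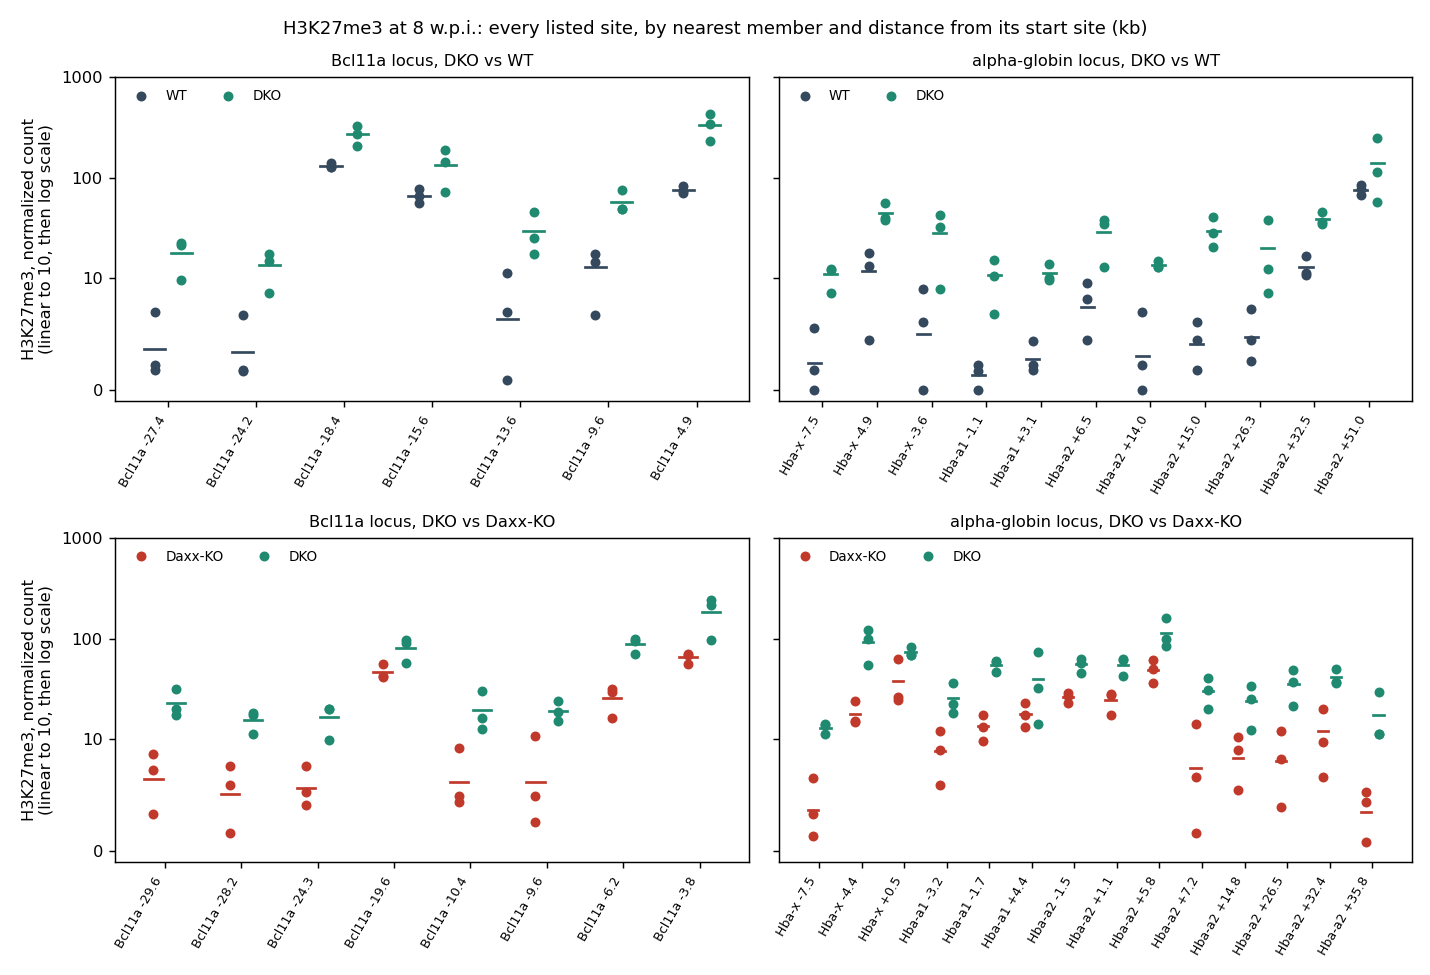
Points are normalized H3K27me3 counts of single libraries at 8 w.p.i. (linear to 10, then log scale) at every listed site of the Bcl11a (left) and alpha-globin (right) loci, with horizontal lines for group means of 3 libraries. DKO means lie above those of WT (top, 7 and 11 sites) and of Daxx-KO (bottom, 8 and 14 sites) at every site.

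H3K9me3 was sparse. At 3 w.p.i. only 1 site at Bcl11a and 1 at beta-globin were listed, in a comparison where 78.9% of sites were gained. The Bcl11a site, just past the end of the gene, had 0 and 3.33 for Daxx-KO against 13.1 and 16.2 for WT (-2.56). At 8 w.p.i. none of the 3 comparisons listed a site at any of the loci; of all their sites 73.4% (DKO against Daxx-KO), 81.4% (DKO against WT) and 65.2% (Daxx-KO against WT) were gained. The DKO libraries of H3K9me3 at 8 w.p.i. ranged from 0.2 to 3.29 reads per window.

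At 24 w.p.i. H3K9me3 had 3 gained and 3 lost sites at Bcl11a and 6 and 2 at the globin genes (75%, 40.9 to 92.9), with 48.1% gained overall. Over the Bcl11a start it was 42.1 and 45.9 for Daxx-KO against 6.22 and 0 for WT (3.45), and in intron 2, 42.1 kb from the start, 26.1 and 62.5 against 3.11 and 0 (4.15). At the end of the gene it was lower, 28.05 and 58.4 against 112 and 131 (-1.47), at the place of the 3 w.p.i. site. All 5 sites of the alpha window were gained. The Bcl11a start thus had listed gains of H3K27ac and H3K9me3 and a listed loss of H3K27me3 at 24 w.p.i., in libraries of mixed cells. The only H3K9me3 pair overlapping between 3 and 24 w.p.i. was the one at the end of Bcl11a, lost at both; genome-wide 56.8% of 14421 such pairs had the same direction.

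**Figure D5:**
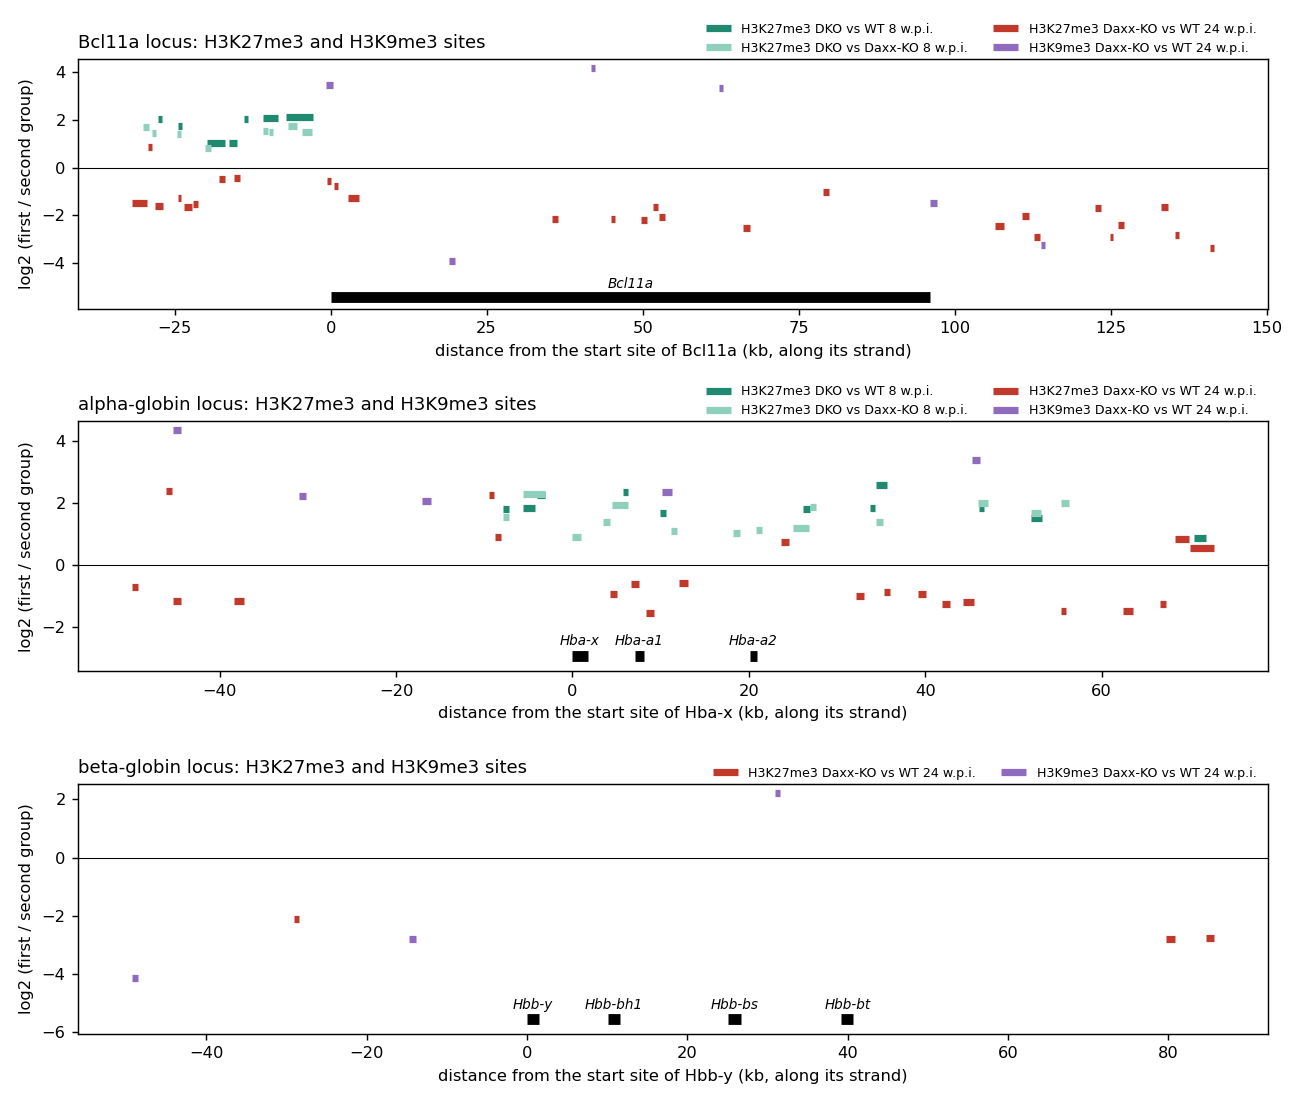
Each dash is an H3K27me3 site at 8 or 24 w.p.i. or an H3K9me3 site at 24 w.p.i., at its distance from the start of Bcl11a, Hba-x or Hbb-y (kb, along the gene's strand) and its log2 ratio of the first group over the second; black bars are gene bodies. At Bcl11a the DKO sites at 8 w.p.i. lie above 0 and upstream of the gene, and 26 of 27 sites of Daxx-KO against WT at 24 w.p.i. lie below 0.

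Markers of cell types also carried listed H3K27ac differences. In the H3K27ac sites within 1 kb of a start of 4 erythroid genes, among them Slc4a1 and Klf1, the summed counts were 62.0 to 71.4 in Daxx-KO and 112.8 to 224.0 in WT at 3 w.p.i., with 3 genes lost and 1 gained. At 24 w.p.i. all 4 were lost, with 305.9 to 340.9 against 1093.6 to 1127.3. For comparison, 41.5% of all listed H3K27ac sites were gained at 3 w.p.i. and 42.5% at 24 w.p.i. These shares count sites and not genes. The 3 of 4 erythroid genes lost at 3 w.p.i. lie near them. Neutrophil genes such as Elane and Mpo, 6 in the list, had 463.0 to 550.4 against 207.4 to 241.6 at 3 w.p.i., with 3 gained and 3 without a site, and 14308.8 to 14541.7 against 7099.9 to 7870.3 at 24 w.p.i., with all 6 gained. The HSPC genes, also 6, had 673.7 to 770.3 against 327.8 to 468.9 at 3 w.p.i., with 1 gained and 2 lost. Most of that sum came from the gained gene Cd34 (738.4 and 655.8 against 310.0 and 286.9), while Kit and Gata2 were lost. At 24 w.p.i. the HSPC genes had 2674.3 to 2737.1 against 1136.8 to 1575.0, with 5 gained. The sums for B cell genes were 5.8 to 30.6 against 11 to 23.6 and 158.1 to 203.1 against 221.5 to 277.0, and for T cell genes 5.1 to 11.6 against 37.5 to 103.2 and 139.4 to 152.2 against 305.0 to 404.2. The part of the cell mixture in the globin and Bcl11a values was not tested. In these bulk libraries fewer cells of a type and less signal per cell cannot be told apart.

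As a check of the labels, H3K27ac was read at listed sites that overlap the floxed part of Daxx (exons 2 to 7). At 3 w.p.i. it was 24.2 and 13.6 for Daxx-KO against 105 and 65.5 for WT, and at 24 w.p.i. 113 and 93.7 against 858 and 368. Pu.1 at 24 w.p.i. was 0 and 0 against 63.3 and 44.2. No other comparison, those at 8 w.p.i. included, lists a site there, so this check does not cover their libraries. Mean reads per window ranged from 3.06 to 22.88 for H3.3 and from 2.75 to 33.78 for Pu.1 at 3 w.p.i., and within 2.59-fold in the other comparisons apart from the 2 with DKO libraries of H3K9me3.

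A list of 26 genes was counted in the same way, with regulators of globin switching (Klf1, Zbtb7a, Myb, Sox6, Gata1 and the subunits of the NuRD complex that Bcl11a recruits among them) and the alpha-globin neighbour Nprl3. For H3K27ac 133 sites were gained and 291 lost at 3 w.p.i. (31.4% gained, against 41.5% of all listed sites) and 412 and 460 at 24 w.p.i. (47.2% against 42.5%). H3.3 had 402 and 90 at 3 w.p.i. (81.7% against 59.4%) and 331 and 254 at 24 w.p.i. (56.6% against 52.6%). Pu.1 had 447 and 127 (77.9% against 56%) and 276 and 309 (47.2% against 48.2%). H3K27me3 had 122 and 282 at 24 w.p.i. (30.2% against 41.2%). At 8 w.p.i. it had 63 and 47 in DKO compared with Daxx-KO (57.3% against 65.3%) and 93 and 16 compared with WT (85.3% against 56.1%). H3K9me3 had 150 and 84 at 24 w.p.i. (64.1% against 48.1%). The shares of H3.3, Pu.1 and H3K27ac at 24 w.p.i. lie near those of all listed sites. H3K9me3 sites were few elsewhere, with 13 and 9 at 3 w.p.i., and at 8 w.p.i. 4 and 4 in DKO against Daxx-KO, 0 and 1 in DKO against WT and 8 and 4 in Daxx-KO against WT. The list was chosen with results known, Klf1 is also an erythroid marker above, Nprl3 shares its window with the alpha genes, and Gata1, on chromosome X, has no sites at 24 w.p.i. because those tables leave out X and Y.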

How the data were processed

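CUT&Tag libraries (54 in 14 comparisons) of HSPC nuclei were compared by genotype as the labels give it, with 2 or 3 libraries per group; 8 DKO libraries at 24 w.p.i. and 1 table of H3K27me3 are not used here. Per the file headers, the authors counted reads in 600 bp windows moved by 50 bp (fragments of 100 bp) with diffReps 1.55.6 and listed sites under a window p-value of 0.0001. The deposited signal of a site is its normalized count per library and the mean over each group; the other deposited columns, with the authors' fold changes and p-values, were not used. The submitters' processing notes name CASAVA 1.8.4, cutadapt 1.13, STAR 2.5.3, bedtools and mm10; which tool did what is not given in the sources used here. For 24 w.p.i. the tables hold no site on X or Y.

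Sites within 50 kb of a gene body (GENCODE M21) were taken with Python 3.11.15, numpy 2.4.6, pandas 2.3.3, scipy 1.17.1, Biopython 1.88 and matplotlib 3.10.9, with 7 of 7 checks of the functions passed when tested on simulated data. No test was run, since a listed site was chosen for its difference. Named were sites within 1 kb of a gene start, the strongest site per locus, comparison and direction, and places with sites of at least 3 comparisons; a few others beside them were chosen after their values were seen. Genes and lists were chosen with earlier results of these data known. One gene of the marker lists is not reported here. The study's methods call the replicates biological; the labels do not tie libraries to single mice. Promoters, for 7 of the 8 genes, are from RefSeq on GRCm38.p6 (mm10).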

Additional observations from a re-analysis of the deposited data

Results flagged for a closer look

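Overlapping sites of 1 mark moved in opposite directions at 3 and 24 w.p.i. in 21 pairs at these loci. Values are the log2 ratio of Daxx-KO over WT at 24 w.p.i. minus that at 3 w.p.i. The difference between the times was not tested, and pairs of the same direction made up 51.2% (H3.3), 48.1% (Pu.1) and 59.8% (H3K27ac) of all overlapping pairs genome-wide.

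For H3.3 the differences were 4.32 in intron 2 of Bcl11a, 70.2 kb from its start, 3.94 downstream of the gene (120.1 kb), -4.61 beyond Hba-a1 (5.7 kb) and 5.53 beyond Hba-a2 (24.4 kb). For Pu.1 they were -1.87 in intron 2 of Bcl11a (54.3 kb), -4.07 and 3.39 downstream of it (99.8 and 140.4 kb), 3.50 and 3.99 over Mpg, a DNA glycosylase gene, upstream of Hba-x (48.4 and 45.5 kb), and -2.49 beyond Hbb-bs (6.1 kb).

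For H3K27ac the difference was 2.23 just upstream of the Bcl11a start (2.0 kb), -3.16, -2.35 and -1.60 within the gene (19.5, 25.2 and 66.9 kb), and -2.88 and -2.95 downstream of it (124.6 and 125.5 kb). Upstream of Hba-x it was 5.30 at 39.4 kb, -4.85 at 12.6 kb, and -4.74 and -4.33 at 11.2 kb, where 1 site at 24 w.p.i. overlaps 2 at 3 w.p.i. At Hbb-bt it was -2.55.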

How the results depend on the processing

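Shares of gained sites kept their side of the background or stayed within their interval under rescaling by mean reads per window, a flank of 100 kb, a minimum average of 20, joining of neighbours within 1 kb, sites whose groups did not overlap, and leaving out each replicate. Gene bodies with no flank moved 7 shares, to 100% of 2 H3.3 and 3 Pu.1 sites at the globin genes at 3 w.p.i. and of 2 Pu.1 sites at 24 w.p.i., to 81.8% of 11 Pu.1 sites at Bcl11a at 3 w.p.i., and to 0.0% of 6 H3K27ac and 1 H3K27me3 sites at the globin genes and of 10 H3K27me3 sites at Bcl11a at 24 w.p.i. For H3K27me3 at Bcl11a at 24 w.p.i. the share was also 0.0% with a flank of 20 kb (15 sites) and with a log2 ratio of at least 1 in size (22 sites); the fewer sites counted are part of each setting. No share or named site reversed under any setting run. Of the 303 named sites, rescaling moved 61 by more than the spread between replicates and pseudocounts of 0.1 and 5 moved 8 and 23; leaving out a replicate moved 34 values and left 1248. Rescaling shifted the median log2 ratio of all listed sites by -0.47 to 0.55, so small log2 ratios depend on the scale. The largest shift, 0.55, was that of H3K27ac at 24 w.p.i. No paired analysis was possible because the listed sites were chosen for their difference and no result comes from a test. A site that is not listed has no value, so its absence at beta-globin or at 8 w.p.i. is not evidence of equal signal.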
